A study of Oryctolagus cuniculus with 3 samples.

Results

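The genes described here form the control circuit of meiotic maturation, the step in which an arrested oocyte resumes division. They are the kinase CDK1, its B-type cyclin partners CCNB1, CCNB2 and CCNB3, the opposing regulators WEE2 and CDC25B, the kinases MOS, PLK1 and AURKA, and CDC20, an activator of the anaphase-promoting complex. Of these 10 symbols, 9 had a row of their own in the deposited gene table of 39681 loci, and all 9 had at least 10 estimated counts in 1 or more libraries. CDC20 appears only in a row merged with a neighbouring gene. The samples were cumulus-oocyte complexes, each an oocyte inside its layer of somatic cells, from the ovaries of female rabbits (Oryctolagus cuniculus). Per the labels, 150 IRA rabbits aged 35 days were allotted to 3 groups and housed for 4 weeks at a set ammonia level. The group labelled LAC was kept at 10 ppm NH3, the group labelled HAC at 30 ppm, and the control group CG below 3 ppm. The labels give no genotype, transgene or further agent, nor the number of rabbits pooled for each library. Each group had 1 library, so no difference below has a replicate check, and none was tested.

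Oocytes wait in prophase of the first meiotic division for a long time. CDK1 bound to cyclin B, the complex called maturation-promoting factor, drives their entry into division. In mouse oocytes WEE2 keeps CDK1 inactive by phosphorylating it, and CDC25B removes that phosphate when meiosis resumes. MOS switches on the MAP kinase cascade that holds the mature egg at the second metaphase, and the anaphase-promoting complex ends each division by destroying cyclin B. Much of the messenger RNA for these proteins is stored in the growing oocyte and translated later. Dividing somatic cells use CDK1, CCNB1, CCNB2, CDC25B, CDC20, PLK1 and AURKA too, whereas WEE2 and MOS are known mainly from germ cells.

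The deposited counts are estimates, each worth about 0.5 reads, and came to 68523767 for LAC and 78461882 for CG. The gene table in the file of HAC was the same in every cell as that in the file of LAC and is headed LAC, so it was used once, and gene values labelled HAC were not analysed here. The FPKM maximum of that shared table, 39492, is the one stated in the statistics block of the HAC file, while the block of the LAC file states 86394. The valid reads are exchanged as well: 72520954 stand in the mapping block of the LAC file and the statistics block of the HAC file, and 72141648 in the other block of each. The counts of the shared table follow the coverage labelled LAC in the long non-coding table at 97.2% of the loci compared, and that labelled HAC at 4.12%. The gene and long non-coding tables thus share the label LAC, but which group's animals that label stands for is uncertain, and "LAC" below names the library by its label. Marker genes of the cells named by the tissue label were looked up. Whole ovary would hold these cells too, so detection alone does not single out cumulus-oocyte complexes. All 17 oocyte markers with a row of their own, such as BMP15, and all 11 granulosa and cumulus markers, such as GJA1, were detected in both libraries. Spliced reads are given as 16.23% in the mapping block of the LAC file, 19.89% in that of the HAC file and 22.01% in that of the CG file, and the exchange of valid reads leaves unsure which of the first 2 values goes with the shared table. Rows with a RefSeq messenger RNA took 65.8% of the counts in LAC and 75.4% in CG. The part of these library-wide gaps in the differences below was not tested.

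The first question was how messenger RNA of these genes differed between LAC and CG. All 9 genes were lower in LAC. Values are given in CPM, counts scaled to a common library total with trimmed mean of M values (TMM) factors, and differences as log2(CPM + 1) in LAC minus CG. A gene passed the size rule when that difference was at least 1 in either direction and 1 of the libraries held 10 counts or more. By this rule 7 of the 9 genes were lower in LAC and 0 were higher. Among 15009 coding genes, 11.0% were lower and 1.89% were higher by the same rule. The 9 genes ranged from -2.50 for WEE2 to -0.55 for CDK1, with a median of -1.61, where the median of all coding genes was -0.14. TMM factors from coding genes alone moved that coding median by 0.14, to 0.00, and left the count at 7 of 9. Fold values are ratios of CPM with exact binomial 95% intervals, which cover counting error only. In bulk samples such as these, fewer cells of a type and less RNA per cell cannot be told apart.

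**Figure D1:**
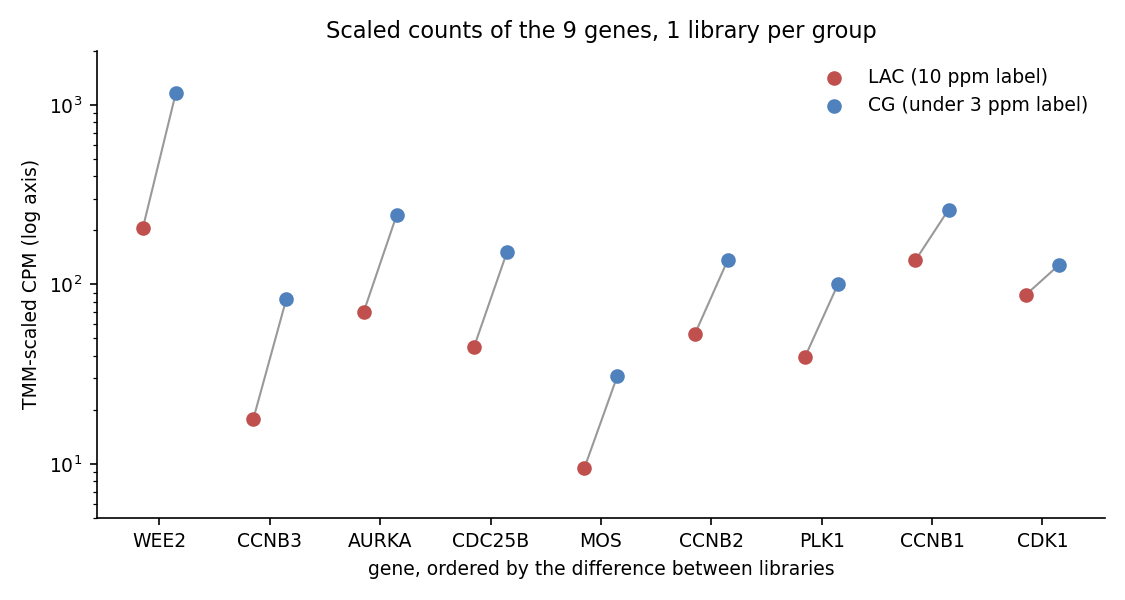
TMM-scaled CPM (log axis) of the 9 genes in the LAC library (red, left of each pair) and the CG library (blue, right), 1 library each, ordered by the difference. Every gene was lower in LAC, from 5.69-fold for WEE2 at the left to 1.47-fold for CDK1 at the right.

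CDK1 is the catalytic subunit of maturation-promoting factor. It had 5933 counts, 87.4 CPM, in LAC and 10145 counts, 128 CPM, in CG. It was 1.47-fold lower in LAC (1.40 to 1.54), the smallest difference of the 9, and did not pass the size rule. Its locus, at 25330848 to 25403308 on the minus strand of NC_013686.1 in OryCun2.0, pools the RefSeq transcript with 1 assembled transcript. The value is that of the whole locus.

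The B-type cyclins, whose synthesis and destruction time the activity of CDK1, differed among themselves. CCNB1, the main mitotic B-type cyclin, had 136 CPM in LAC and 261 CPM in CG. It was 1.91-fold lower in LAC (1.85 to 1.98), a log2 difference of -0.93 that stopped just short of the size rule. CCNB2 had 52.6 CPM in LAC and 137 CPM in CG, 2.60-fold lower in LAC (2.46 to 2.74). CCNB3, which in mouse oocytes is needed to leave the first meiotic metaphase, had 17.7 CPM in LAC and 82.8 CPM in CG. It was 4.69-fold lower in LAC (4.29 to 5.12), and its interval did not overlap those of CCNB1 and CCNB2. The order of the differences, largest first, was thus CCNB3, then CCNB2, then CCNB1, with no overlap of the counting intervals between neighbours. CCNB1 lies at 85364692 to 85371347 on the plus strand of NC_013679.1, CCNB2 at 13281661 to 13307020 on the minus strand of NC_013685.1, and CCNB3 at 6160 to 42727 on the plus strand of the scaffold NW_003159374.1. The CCNB3 locus holds 4 transcripts, of which 3 are assembled ones, so its count may include parts that RefSeq does not annotate.

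WEE2 and CDC25B act on CDK1 in opposite directions, as the inhibitory kinase and the activating phosphatase. WEE2 showed the largest difference of the 9 genes. It had 13960 counts, 206 CPM, in LAC and 92601 counts, 1170 CPM, in CG, which made it 5.69-fold lower in LAC (5.55 to 5.84). Of the 15009 coding genes, 82, or 0.546%, had a lower difference than WEE2. The gene, at 496587 to 522016 on the plus strand of the scaffold NW_003159384.1, is a single RefSeq transcript in the table and overlaps no other locus. CDC25B had 44.6 CPM in LAC and 152 CPM in CG, 3.40-fold lower in LAC (3.21 to 3.60). It lies at 10663300 to 10672745 on the plus strand of NC_013672.1. WEE2 and CDC25B were both lower in LAC, and WEE2 by more: 4.60 counts of WEE2 stood against 1 of CDC25B in LAC and 7.71 in CG. Such a ratio within a library does not depend on how libraries are scaled. It is not corrected for transcript length, so only its change between libraries can be read.

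MOS, the germ-cell kinase at the head of the MAP kinase cascade, had the fewest counts of the 9 genes. It had 642 counts, 9.45 CPM, in LAC and 2450 counts, 30.9 CPM, in CG. It was 3.27-fold lower in LAC (2.89 to 3.71), with the widest interval relative to its size that these counts gave. MOS spans 1047 bases, 71652169 to 71653215 on the minus strand of NC_013671.1. Its log2 difference was -1.61 with the pseudocount of 1 CPM, -1.70 with 0.1 CPM and -1.31 with 5 CPM, since a pseudocount weighs most on low values.

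PLK1 and AURKA, kinases of centrosome and spindle assembly that also help to switch on CDK1, were both lower in LAC. AURKA had 69.8 CPM in LAC and 243 CPM in CG, 3.48-fold lower in LAC (3.33 to 3.64). PLK1 had 39.5 CPM in LAC and 101 CPM in CG, 2.55-fold lower in LAC (2.40 to 2.72). AURKA thus differed by more than PLK1, with no overlap of their intervals. AURKA lies at 235215 to 256017 on the plus strand of the scaffold NW_003159338.1. CSTF1 on the opposite strand shares 517 bases with it, 2.49% of the genomic span of AURKA. That span includes introns, and the shared part of the transcript was not measured. CSTF1, a subunit of the cleavage stimulation factor for messenger RNA 3′ ends, was also lower, at 29.2 CPM in LAC and 76.7 CPM in CG. The labels' protocols mark the second strand, but the sources used here do not say whether counting used strand, so reads in the shared stretch could belong to either gene. PLK1 lies at 14398142 to 14411401 on the plus strand of NC_013674.1 and shares 49 bases with ERN2, which had 0 counts in both libraries.

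CDC20, which brings substrates such as cyclin B to the anaphase-promoting complex, has only the merged row. How many of its counts come from CDC20 cannot be told apart from those of the neighbouring gene, so CDC20 is left out of every count of members and no value is given for it.

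**Figure D2:**
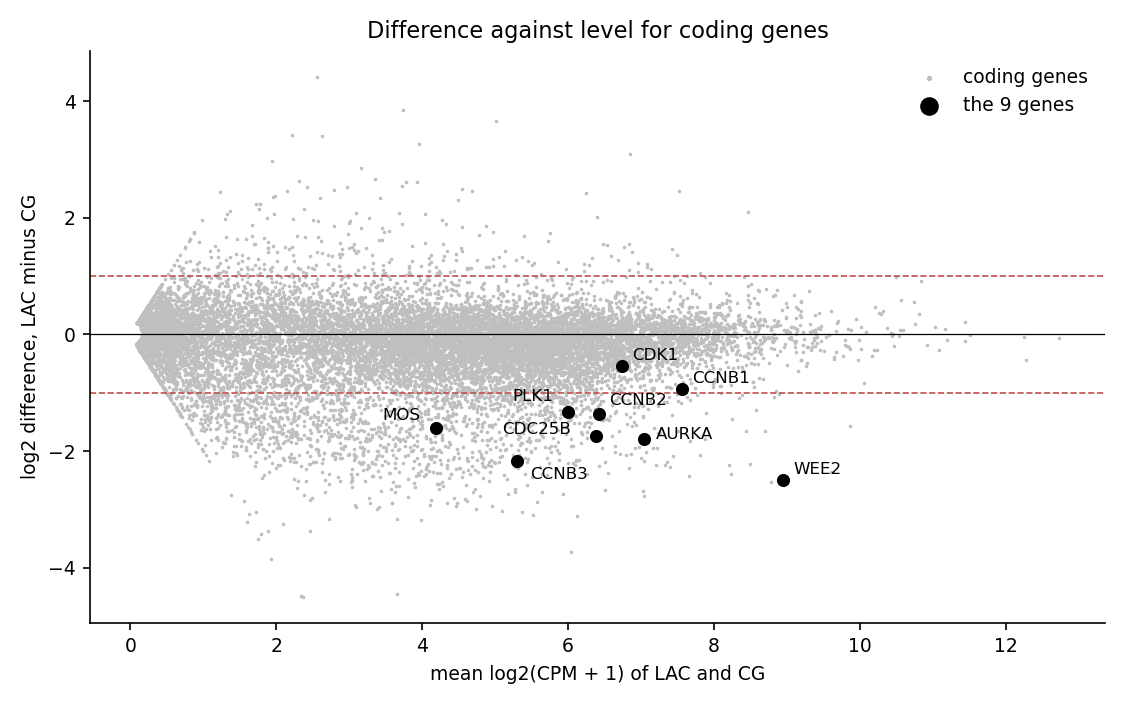
Log2 difference of CPM + 1, LAC minus CG, against the mean log2(CPM + 1) of both libraries, for 15009 coding genes (grey) and the 9 genes (black), with the size rule at 1 and -1 as dashed lines. All 9 black points lie below 0, 7 of them below -1, and WEE2 combines a high level with a difference of -2.50.

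The 9 genes summed to 663 CPM in LAC and 2304 CPM in CG, 3.48-fold lower in LAC. WEE2 made up 31.0% of that sum in LAC and 50.8% in CG. Without WEE2 the other 8 genes summed to 457 CPM in LAC and 1135 CPM in CG, 2.48-fold lower in LAC, with a median log2 difference of -1.49. WEE2 therefore weighs on the sum, and the median of the rest stayed below -1.

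Set against their own gene families, CCNB3, WEE2 and AURKA held smaller shares in LAC than in CG, and CCNB1 held a larger one. Among the B-type cyclins, CCNB3 made up 8.56% of counts in LAC (exact binomial 95% interval 7.92 to 9.24) and 17.2% in CG (16.7 to 17.8). CCNB1 made up 66.0% in LAC (64.8 to 67.1) and 54.3% in CG (53.6 to 55.0). CCNB2 took 25.5% in LAC and 28.5% in CG. Among the kinases that phosphorylate CDK1, WEE2 made up 83.7% of counts in LAC (82.9 to 84.5) and 96.4% in CG (96.2 to 96.6). WEE1, the general form, had 38.3 CPM in LAC and 38.0 CPM in CG. Its difference was 0.01, or -0.02 with total counts and 0.18 with TMM factors from coding genes. Its share was 15.6% in LAC and 3.14% in CG. PKMYT1, the membrane-bound kinase of the same family, had 1.75 CPM in LAC and 5.75 CPM in CG. AURKA took 87.3% of the counts of AURKA and AURKB together in LAC and 94.1% in CG, AURKB, the chromosomal passenger kinase, having 10.2 CPM in LAC and 15.2 CPM in CG. AURKC, a kinase of the same family used in meiosis, shares a row with another gene and is not included.

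Among the CDC25 phosphatases, CDC25C held a larger share in LAC and CDC25B a smaller one. CDC25B held 54.4% of the family's counts in LAC (52.5 to 56.2) and 57.8% in CG (56.8 to 58.7). CDC25A, a phosphatase that also acts at the entry into DNA replication, held 32.2% in LAC (30.44 to 33.94) and 34.8% in CG (33.89 to 35.73). These intervals overlap slightly. CDC25C, a phosphatase of the entry into mitosis, held 13.4% in LAC and 7.43% in CG. CDC25A was 3.46-fold lower in LAC (3.21 to 3.73) and CDC25B 3.40-fold, with overlapping counting intervals. Among the Polo kinases, PLK1 held 42.8% in LAC and 46.8% in CG, and PLK4, the kinase of centriole duplication, held 48.4% in LAC and 44.7% in CG.

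**Figure D3:**
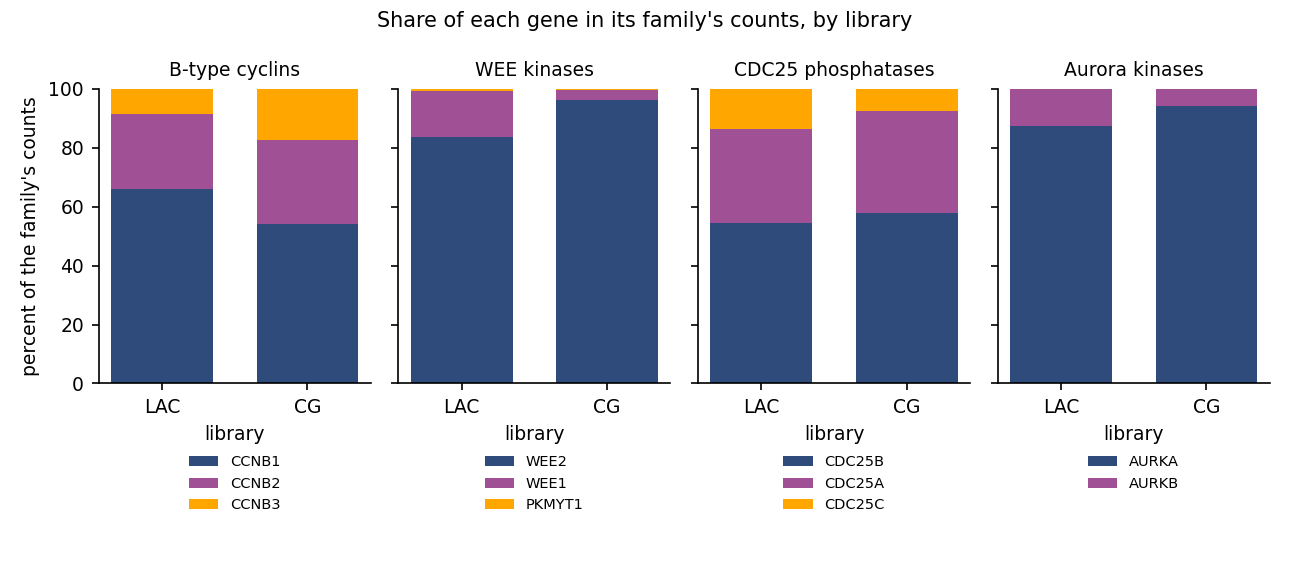
Share of each gene in the summed counts of its family, in percent, in the LAC library (left bar) and the CG library (right bar), 1 library each. CCNB3 was at 8.56% of B-type cyclin counts in LAC and 17.2% in CG, and WEE1 at 15.6% of WEE kinase counts in LAC and 3.14% in CG.

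Counts set against CDK1 within each library restate the fold values above relative to that gene. CDK1 had the smallest difference of the 9 genes, so each such ratio had to be lower in LAC. There were 1.56 counts of CCNB1 for 1 of CDK1 in LAC and 2.03 in CG. For CCNB2 the ratio was 0.602 in LAC and 1.07 in CG, and for CCNB3 0.202 in LAC and 0.646 in CG. For WEE2 it was 2.35 in LAC and 9.13 in CG, 3.88-fold lower in LAC, and for MOS 0.108 in LAC and 0.241 in CG. These ratios are not per length and say nothing of which RNA was more abundant within a library.

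Among other genes of the CDK1 network, 9 of 26 were lower in LAC by the size rule and 0 higher, with a median of -0.76. CDC25A, at 26.4 CPM in LAC and 91.4 CPM in CG, had the largest difference. CDK7, part of the kinase that activates CDK1, followed, with 52.6 CPM in LAC and 147 CPM in CG, 2.79-fold lower in LAC. PPP2R1A, the scaffold subunit of the phosphatase PP2A that opposes CDK1, had 113 CPM in LAC and 121 CPM in CG, a difference of -0.10.

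In the anaphase-promoting complex and its regulators 3 of 16 tested genes were lower by the rule and 0 higher, with a median of -0.41. FBXO5, an inhibitor of the complex, had 32.1 CPM in LAC and 86.5 CPM in CG, 2.69-fold lower in LAC. ANAPC15, a small subunit, was 2.31-fold lower. The third was FBXO43, the inhibitor that holds the mature egg in arrest, at 9.04 CPM in LAC and 19.9 CPM in CG. It is named because only 3 passed, after its values were seen. The core subunits CDC27, at 193 CPM in LAC and 210 CPM in CG, and ANAPC1, at 128 CPM in LAC and 182 CPM in CG, did not pass.

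In the spindle checkpoint and separase list 7 of 11 genes were lower by the rule, 0 were higher, and the median was -1.16. PTTG1, the securin that the anaphase-promoting complex destroys together with cyclin B, had 45.4 CPM in LAC and 153 CPM in CG, 3.38-fold lower in LAC. SGO1, a protector of centromeric cohesion, was 2.96-fold lower. MAD2L1, the checkpoint protein that binds CDC20, had 69.7 CPM in LAC and 137 CPM in CG and stopped just short of the rule at -0.96. BUB3, a checkpoint protein at kinetochores, had 142 CPM in LAC and 179 CPM in CG, a difference of -0.33.

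Downstream of MOS, 1 of 5 tested genes was lower by the rule and 0 higher, with a median of -0.54. That gene was MAP2K1, the kinase that MOS phosphorylates, at 23.5 CPM in LAC and 53.6 CPM in CG. The ribosomal S6 kinase RPS6KA3, further down the cascade, had 154 CPM in both. Of the partners and relatives of PLK1 and AURKA, 4 of 11 were lower by the rule and 0 higher, with a median of -0.84. PLK4 had 44.6 CPM in LAC and 96.2 CPM in CG, and TPX2, which activates AURKA on the spindle, had 91.4 CPM in LAC and 173 CPM in CG, a difference of -0.91. BIRC5, the survivin gene, passed at 1.05 CPM in LAC and 4.50 CPM in CG. PLK3, a stress-responsive Polo kinase, passed at 2.53 CPM in LAC and 8.22 CPM in CG. TMM factors from coding genes move every difference upwards, and the share of all coding genes lower by the rule was then 8.93%. With them the counts of genes lower by the rule were 7 in the CDK1 network and 1 in the anaphase-promoting complex list. They were 5 in the spindle checkpoint and separase list, 0 downstream of MOS and 2 among the partners of PLK1 and AURKA. PPP2R1A and RPS6KA3 were then slightly above 0.

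The pathway terms of the deposited gene table place 8 of the 9 members under progesterone-mediated oocyte maturation, 6 under oocyte meiosis and 7 under cell cycle. Of the 81 other tested coding genes under progesterone-mediated oocyte maturation, 10, or 12.3%, were lower by the rule and 0 higher, with a median of -0.28. Under oocyte meiosis 18 of 105 others, or 17.1%, were lower and 0 higher, with a median of -0.24. Under cell cycle 25 of 124 others, or 20.2%, were lower and 1 higher, with a median of -0.35. The background share of coding genes lower in LAC is 11.0%, as given above. These terms were looked up after the members' values were seen.

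**Figure D4:**
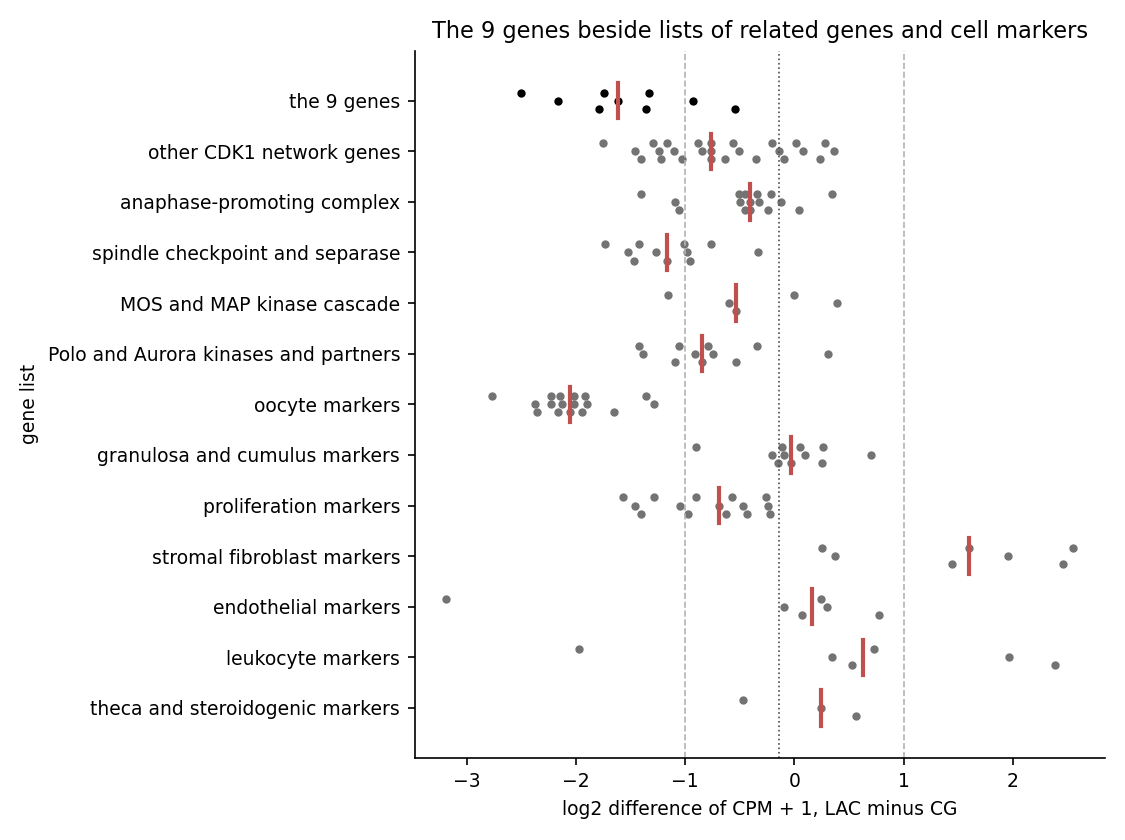
Log2 difference of CPM + 1, LAC minus CG, of each gene (dots) in the 9 genes and in lists of related genes and of cell markers, with the median of each list in red, the median of coding genes as a dotted line and the size rule as dashed lines. The 9 genes have a median of -1.61, between that of the oocyte markers, -2.05, and that of the proliferation markers, -0.69.

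By the size rule, the oocyte markers and part of the proliferation markers were lower, as were 7 of the 9 genes. The granulosa and cumulus markers were not. By sign alone, all 15 proliferation markers and 6 of the 11 granulosa and cumulus markers were below 0. All 17 detected oocyte markers were lower in LAC by the rule, with a median of -2.05 and a range of -2.77 to -1.28, and they summed to 940 CPM in LAC and 4533 CPM in CG. Among them KPNA7, an importin of the egg, was 6.92-fold lower, ZP2, a zona pellucida protein, 5.28-fold, and BTG4, an adaptor of maternal RNA decay, 4.72-fold. Of the 11 granulosa and cumulus markers 0 passed the rule in either direction. Their median was -0.04, and they summed to 13932 CPM in LAC and 14249 CPM in CG. With TMM factors from coding genes that median was 0.14. The proliferation markers had 5 of 15 lower by the rule, 0 higher and a median of -0.69, with PCNA, the sliding clamp of DNA replication, at 539 CPM in LAC and 1599 CPM in CG. Of these 15, 4 were lower by the rule with TMM factors from coding genes and 6 with total counts. The part of these cell types in the values of the 9 genes was not tested.

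The 9 genes did not sit at 1 place among those markers. WEE2, at -2.50, was lower than 16 of the 17 oocyte markers, and CCNB3, at -2.17, lay inside their range, with 12 of them above it. CDC25B and AURKA had 14 oocyte markers below them, MOS 15, and CCNB2 and PLK1 16. CCNB1 and CDK1, at -0.93 and -0.55, lay above all 17 oocyte markers and inside the range of the proliferation markers. CCNB2 and PLK1, at -1.36 and -1.33, lay inside the ranges of both marker lists. Only CDK1 lay above the lowest granulosa marker, IHH, a hedgehog ligand, at -0.90. For 100 counts of oocyte markers there were 21.9 of WEE2 in LAC and 25.8 in CG, and 1.88 of CCNB3 in LAC and 1.83 in CG. For CDK1 there were 9.29 in LAC and 2.83 in CG, and for CCNB1 14.5 in LAC and 5.75 in CG. The other 5 genes also had more in LAC, ranging by ratio from 7.43 in LAC and 5.37 in CG for AURKA to 4.20 in LAC and 2.22 in CG for PLK1. Relative to the summed oocyte markers, 7 of the 9 genes were thus higher in LAC, CCNB3 was close in both libraries and WEE2 was lower. That sum leans on its highest genes, BMP15 alone having 345 CPM in LAC and 1771 CPM in CG.

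Markers of other cells that ovarian tissue can hold went in other directions. Of the 7 stromal fibroblast markers 5 were higher in LAC and 0 lower, with a sum of 140 CPM in LAC and 36.2 CPM in CG. Among them POSTN, a matrix protein, had 59.5 CPM in LAC and 9.99 CPM in CG, and DCN, a matrix proteoglycan, 31.1 CPM in LAC and 4.46 CPM in CG. The 6 endothelial markers tested had a median of 0.16, with 0 higher and 1 lower, and CDH5 was at 0 in CG. The lower one was TEK, the angiopoietin receptor, at 4.23 CPM in LAC and 46.7 CPM in CG. The list summed to 8.08 CPM in LAC and 49.0 CPM in CG with TEK, and to 3.86 CPM in LAC and 2.36 CPM in CG without it, a split chosen after seeing the data, as is the next. The leukocyte markers had 2 of 6 higher and 1 lower, with a median of 0.63. MRC1, a macrophage receptor, had 8.04 CPM in LAC and 0.733 CPM in CG, while MS4A1, a B-cell surface protein, had 2.83 CPM in LAC and 14.01 CPM in CG. The list summed to 21.8 CPM in LAC and 19.5 CPM in CG with MS4A1, and to 19.0 CPM in LAC and 5.51 CPM in CG without it. CD3E was at 0 in both libraries and CD74 in CG. Of the 6 theca and steroidogenic markers listed, CYP17A1, INSL3 and HSD3B1 had no row, so little can be read on theca cells. Of the other 3 markers 0 passed in either direction. STAR was at -0.48, CYP11A1 at 0.25 and LHCGR at 0.56, and the equal sums of 115 CPM in both libraries join these opposite directions.

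For 4 of the genes, the coding genes with the most similar pair of values were looked up by Euclidean distance on log2(CPM + 1) over the 2 libraries. Nearest to WEE2 were DNMT1, the maintenance DNA methyltransferase, at 181 CPM in LAC and 1058 CPM in CG and a distance of 0.23, then BTG4 at 0.65 and PAIP1 at 0.69. Among the nearest to CCNB3 were LLGL2, at a distance of 0.06, and RHPN2, at 0.08. Nearest to CCNB1 were AKIRIN2, ATL2 and SKP2, a ubiquitin ligase subunit of the cell cycle, at 0.05 to 0.08. CDK1 had PSMD12, ADIPOR1 and ACSL3 at 0.01 each. A pair of libraries gives little to match on, so where many genes have a level and difference like those of CDK1 the nearest ones are close by number alone, while few lie near WEE2.

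The long non-coding table covered CG, LAC and HAC. None of its 15335 transcripts overlapped a member gene, and 11 lay within 100 kb of 5 members. CCNB2, CCNB3, CDC25B and PLK1 had none in that window. All 11 were at 2.81 FPKM or less in each library. The closest was the RefSeq transcript of LOC108177296, on the minus strand 2127 bases from CCNB1, at 1.12 FPKM in CG, 0.84 FPKM in LAC and 0.48 FPKM in HAC. Nearest to WEE2, 79431 bases away in an intron of AGK, MSTRG.22323.1 was at 0.27 FPKM in CG, 1.68 FPKM in LAC and 0.20 FPKM in HAC. It was the 1 transcript past the size rule in LAC against CG, as higher, and in HAC against LAC, as lower. For these transcripts the rule also asked for 1 FPKM in the higher library, which 8 of the 11 reached in LAC or CG. In HAC against CG 0 passed, and not all of the 11 reached 1 FPKM in either library. Among all long non-coding transcripts that reached 1 FPKM, the share past the rule in LAC against CG was 13.6% upwards and 12.5% downwards. In HAC against LAC the shares were 16.8% higher and 12.6% lower, and in HAC against CG 10.1% higher and 7.07% lower. At these levels the differences of single transcripts rest on few reads.

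The levels of the 9 genes cannot be ranked against each other from these files. The authors' deposited FPKM, which should allow for transcript length, was 633 in LAC and 3763 in CG for WEE2, and 22.8 in LAC and 34.8 in CG for CDK1. Set beside the counts, and with the relation of coverage to FPKM in the long non-coding table, these values imply a length of 288 bases for WEE2, 287 for AURKA and 688 for MOS, whose span is 1047 bases. The scale of the deposited FPKM between genes is therefore uncertain. Between the libraries FPKM and CPM gave the same picture, since the ratio of LAC to CG in FPKM was 0.957 to 0.958 times that in CPM for each of the 9 genes.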

How the data were processed

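RNA of rabbit cumulus-oocyte complexes was sequenced after ribosomal RNA depletion with dUTP marking of the second strand, per the labels' protocols. Named in the submitters' processing notes are the read filter fastp, the aligner HISAT2 and the build OryCun2.0. The assembly and abundance steps are not given in the sources used here. The deposited files hold estimated counts and FPKM per gene, and, per the file headers, coverage (a signal of mean depth) and FPKM per long non-coding transcript. At loci with 1 transcript and coverage above 2, the count was within 5% of coverage times length over 75 at 97.2% of 8638 loci in LAC and 96.3% of 8651 in CG, while the HAC coverage gave the shared table's count at 4.12% of 8795. Raw bases over raw reads in the file headers give reads of 150 bases, so a count was taken as 0.5 reads and intervals were computed on halved counts. Another 2 columns of per-sample values, the HAC file's copy of the gene table, were left unused.

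Members were found by exact gene name among rows with a RefSeq messenger RNA. Counts were scaled by TMM (30% of ratios and 5% of levels trimmed, factors 0.991 in LAC and 1.01 in CG) with numpy 2.4.6, pandas 2.3.3 and SciPy 1.17.1 under Python 3.11.15, and figures drawn with matplotlib. The script was run on simulated counts in which as many genes were raised as lowered. The real data lean to lower values in LAC, so that run does not check the scaling under such a lean. The design assumed a column type that the stacked files do not allow to be declared, and the values were used as estimated counts all the same. For a gene with several coding rows the most counted row was used. Of 12 lists around the members, the 2 genes with the highest level and the 2 with the largest difference in each are named, beside the members' own families and the exceptions stated; not every such gene is described. The members and lists were chosen with earlier results of these data known. RefSeq sequences were not used here. The total counts above and the intervals set the precision, which covers counting error only. Some results that the naming rules cover are not reported here.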

Additional observations from a re-analysis of the deposited data

How the results depend on the processing

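The 9 genes were recomputed with total counts, median-of-ratios factors, TMM factors from coding genes, pseudocounts of 0.1 and 5 CPM and the deposited FPKM. All 54 values stayed below 0, and 7 of the 9 genes passed the size rule under each of these 6 settings, without a filter on low values and at 5 CPM or more in the higher library. A pseudocount cannot turn the sign of a difference. Each of the other settings changes the ratio of LAC to CG by nearly the same factor in all 9 genes. The 54 values are therefore not independent checks. With a size rule of 2, 2 passed, WEE2 and CCNB3. The share of all coding genes past that rule was not computed, nor were the shares without a filter and at 5 CPM. The median of -1.61 became -1.45 with TMM factors from coding genes, -1.31 with a pseudocount of 5 and, in a choice made after seeing the data, -1.49 without WEE2. CCNB1, short of the rule in each setting, ranged from -0.997 to -0.76. Of the 15009 coding genes, 1653 were lower and 283 higher, against 2740 and 943 with a pseudocount of 0.1, 909 and 112 with 5, and 1428 and 179 with FPKM, so the background share ranged from 6.06% to 18.3%. Transcripts near members past the rule numbered 1 in LAC against CG, with 0 under median-of-ratios factors and 3 with a pseudocount of 0.1. In HAC against LAC it was 1, with 0 and 2, and in HAC against CG 0, with 3 at the pseudocount of 0.1. The shares of all long non-coding transcripts under these other settings were not computed. No paired analysis was possible because each group has 1 library, for which reason no library could be left out either. Counts of 642 to 92601 per gene keep counting error small, and the spread between animals was not measured.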
